A study of Arabidopsis thaliana with 6 samples.

Results

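The last steps of anthocyanin synthesis in Arabidopsis thaliana were followed through 10 genes, chosen by their gene identifiers out of the 21437 genes that both high light tables of the series list. They are the enzyme genes DFR and LDOX, the glycosyltransferase genes UF3GT and UGT75C1, the acyltransferase genes 3AT1, 3AT2, 5MAT and SCPL10, the glucosidase family gene BGLU10 and the glutathione transferase gene GSTF12. All 10 were found in each of the 3 tables. RNA came from rosette leaves of greenhouse plants of the Columbia ecotype, kept in long days, in 6 libraries. After 48 hours of high light, plants of 30 days gave 2 libraries of the mutant ibm1-3 and 2 of wild type (WT). Under low light, plants of 40 days gave 1 library of ibm1-3 and 1 of WT. The ibm1-3 plants carry a mutation in IBM1, whose jumonji-type protein removes methyl groups from histones and so keeps the marks of silent chromatin off active genes. The labels do not say how many plants went into a library or whether the numbered libraries came from separate plants. The p-values and standard errors (SE) therefore reflect a spread between libraries, possibly a technical one. That spread is moderated, which means that most of it is borrowed from all genes tested.

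Anthocyanins are the red to purple flavonoid pigments of leaves under strong light, cold or lack of nutrients. DFR reduces dihydroflavonols and LDOX oxidises the product to coloured anthocyanidins. Sugars and acyl groups are then attached in the cytosol and the vacuole, and a glutathione transferase family protein is needed to bring the pigment into the vacuole. In Arabidopsis a complex of MYB, bHLH and WD40 proteins, among them MYB75, MYB90, TT8 and TTG1, switches on the late genes, and small MYB proteins such as MYBL2 oppose it.

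The high light libraries form 2 pairs of ibm1-3 and WT, each deposited as a table with its own scaling. Pair 1 held 12502408 estimated fragments for ibm1-3 and 12121246 for WT. The low light libraries held 13099267 reads for ibm1-3 and 15425082 for WT, where 15 reads is the lowest listed value and lower genes are listed at 0. Pair 2 is given in FPKM only, and the size of its smallest values corresponds to about 21900000 fragments for ibm1-3 and 21700000 for WT. IBM1 itself did not separate the labels in high light, with 17.6 and 7.46 FPKM in the libraries labelled ibm1-3 and 13.8 and 8.34 FPKM in those labelled WT, beside 399 reads in ibm1-3 and 643 in WT under low light, so ibm1-3 and WT stand for the libraries' labels throughout. FPKM counts fragments per kilobase of gene, scaled to the size of the library. The leaf genes RBCS1A, RCA, CAB1 and PSAD1, of Rubisco, its activase and the photosystems, were abundant in all 6 libraries. Their summed level per length, in parts per 1000000 (ppm) of the 20575 genes that all 3 tables list, was 5871 and 9422 ppm in ibm1-3 and 29600 and 41820 in WT after high light, and 8853 in ibm1-3 and 12830 in WT under low light. Of the floral markers AP1, AP3, PI and AG and of the seed coat markers BAN, TT12, TT2 and AHA10, those listed summed to at most 5.29 ppm per set in any library.

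The sequences just before the genes are shown because most members moved together after high light while SCPL10 and BGLU10 did not. The 250 bases before the annotated start were read from RefSeq's TAIR10.1 genome and annotation. Its coordinates equal those in the pair 1 table for 7 of the 10 members and differ at 1 or both ends for LDOX, SCPL10 and BGLU10. The start, which sets the window, is the same for LDOX. For SCPL10 it is 9792166 in RefSeq and 9792212 in the pair 1 table. For BGLU10 it is 13864659 and 13864327, so the windows of these genes depend on the annotation used. Each sequence is written 5′ to 3′ on the gene's strand. Capitals mark matches on either strand to the E-box CANNTG, of which the G-box CACGTG is a special case, or to the MYB elements CCTACC and CCAACC. E-boxes are the sites known for bHLH proteins. The genes with the highest change in high light on log2(FPKM + 1) (DFR) and in low light (5MAT, also above DFR on plain FPKM ratios in pair 1), the member with the most E-boxes (UF3GT), the member with both a G-box and a MYB element (SCPL10) and the member with no match (3AT1) are given.
DFR (chr5:17166033-17166282, reverse strand): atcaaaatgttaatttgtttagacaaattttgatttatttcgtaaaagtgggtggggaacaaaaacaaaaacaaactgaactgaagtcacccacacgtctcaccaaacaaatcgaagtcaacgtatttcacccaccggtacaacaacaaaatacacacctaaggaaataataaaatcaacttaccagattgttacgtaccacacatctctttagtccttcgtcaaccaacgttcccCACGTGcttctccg
UF3GT (chr5:21938397-21938646, reverse strand): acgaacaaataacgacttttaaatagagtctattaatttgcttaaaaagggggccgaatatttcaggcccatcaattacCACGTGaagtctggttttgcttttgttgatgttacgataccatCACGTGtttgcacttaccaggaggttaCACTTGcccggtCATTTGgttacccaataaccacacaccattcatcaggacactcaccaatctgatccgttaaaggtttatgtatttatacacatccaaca
5MAT (chr3:11400333-11400582, reverse strand): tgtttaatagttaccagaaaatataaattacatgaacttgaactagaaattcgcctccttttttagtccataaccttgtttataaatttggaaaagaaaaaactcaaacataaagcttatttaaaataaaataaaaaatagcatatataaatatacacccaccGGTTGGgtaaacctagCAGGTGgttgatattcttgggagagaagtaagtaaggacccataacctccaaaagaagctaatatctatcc
SCPL10 (chr2:9791916-9792165, forward strand): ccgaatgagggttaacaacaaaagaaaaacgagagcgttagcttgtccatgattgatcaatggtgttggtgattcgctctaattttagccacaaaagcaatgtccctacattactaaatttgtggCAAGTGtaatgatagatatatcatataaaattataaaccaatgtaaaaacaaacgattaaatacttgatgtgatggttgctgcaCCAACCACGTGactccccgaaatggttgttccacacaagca
3AT1 (chr1:1011146-1011395, reverse strand): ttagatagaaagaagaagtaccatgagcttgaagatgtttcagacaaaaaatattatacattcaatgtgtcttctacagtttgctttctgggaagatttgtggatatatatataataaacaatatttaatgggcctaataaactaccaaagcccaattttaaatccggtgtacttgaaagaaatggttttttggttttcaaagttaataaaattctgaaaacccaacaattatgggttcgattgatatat

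A G-box was present before DFR, UF3GT and SCPL10, 3 of the 10 members, and before 6.49% of 27443 protein-coding genes. An E-box of any kind was present before 7 of 10 members, against 55.3% of all genes. One of the MYB elements was present before 5 of 10, against 9.03%, and all 5 were CCAACC (LDOX, UGT75C1, 5MAT, GSTF12 and SCPL10). CCTACC was present before 0 of 10, against 3.01%. UF3GT carried its G-boxes with the first base at -171 and -128 from the gene start, and DFR its single one at -14. In SCPL10 the MYB element at -41 and the G-box at -36 overlap by a base. These matches are descriptions of letters in this window and not shown to be bound sites.

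**Figure D1:**
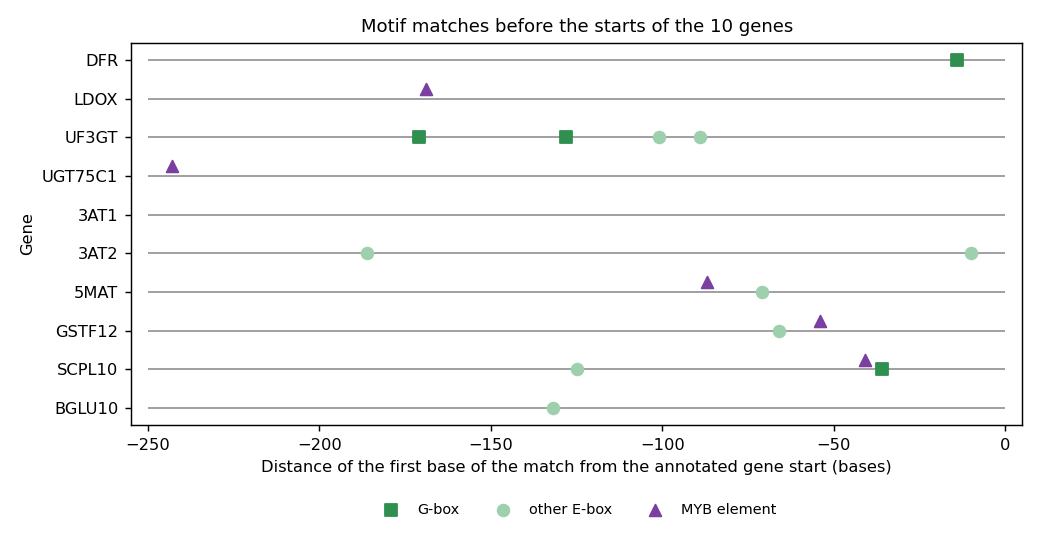
Each row is the stretch of 250 bases before the annotated start of a gene, with distance in bases on the horizontal axis. Squares are G-boxes, circles other E-boxes and triangles the MYB element. 3AT1 has no match, and SCPL10, with a G-box and a MYB element next to each other, is the member that did not pass the high light test.

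The first comparison asked how the 10 genes differed between ibm1-3 and WT after high light. Of the 10, 8 rose in ibm1-3, BGLU10 fell and SCPL10 did not pass the test. Both ibm1-3 libraries lay above both WT libraries for 8 members, as for 43.2% of genes tested. The 8 that rose were DFR, LDOX, UF3GT, UGT75C1, 3AT1, 3AT2, 5MAT and GSTF12, each at least 4-fold. The test was limma on log2(FPKM + 1) with the pair as a block and Benjamini-Hochberg adjustment over all genes. Of 17399 genes tested, 75.2% passed in either direction, 49.2% higher and 26.0% lower in ibm1-3, so a call alone is common here. Being called and at least 4-fold higher held for 4.4% of genes and for 8 of the 10 members. The median log2 fold change of the members was 4.27 and that of all genes 0.251, a shift of all genes that became -0.041 when FPKM was divided by size factors. With size factors 6063 of 12796 calls were higher, 35.0% of genes tested, and without the pair block 18.2% of genes were called higher, with 8 members among them in both fits. All 10 members passed the filter on low values (at least 1 FPKM in 2 libraries), 5MAT through its ibm1-3 libraries only.

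DFR (AT5G42800, chromosome 5, 17164093 to 17166032, reverse strand, 6 exons) takes dihydroflavonols, which flavonol synthase also uses, towards anthocyanins. In ibm1-3 it had 294 and 379 FPKM in pairs 1 and 2, against 4.18 and 3.95 FPKM in WT. Both ibm1-3 libraries thus lay far above both WT libraries, at 70.3 and 96.0 times their WT partners. On log2(FPKM + 1) its fold change was the highest of the members at 6.05 ± 0.10 (moderated SE, n = 2 libraries per genotype, adjusted p = 1.95e-08). The 2 pairs stood at 5.83 and 6.26 on that scale. Here and below, ± is the moderated SE and not the gene's own spread. By rank among the 20575 genes listed in all 3 tables, DFR stood at the percentiles 98.8 and 98.97 in ibm1-3 and 40.2 and 38.7 in WT.

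LDOX (AT4G22880, chromosome 4, 12004768 to 12006209, reverse strand, 2 exons), which forms anthocyanidins, had 239 and 184 FPKM in ibm1-3 against 4.42 and 2.59 FPKM in WT. The groups did not overlap, and the log2 fold change was 5.58 ± 0.08 (adjusted p = 1.55e-08). A neighbouring gene, AT4G22870, matches LDOX at 96.2% over 364 bases, and 3.85% of the 50-base stretches of the LDOX transcript occur in another gene, so a small part of its reads cannot be placed with certainty.

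The glycosyltransferases add sugars to the anthocyanidin core. UF3GT (also UGT79B1, AT5G54060, chromosome 5, 21936746 to 21938396, reverse strand, 1 exon) adds xylose to the sugar at position 3. It had 92.4 and 109 FPKM in ibm1-3 against 2.39 and 2.79 FPKM in WT, and its log2 fold change was 4.82 ± 0.08 (adjusted p = 1.85e-08). UGT75C1 (AT4G14090, chromosome 4, 8122188 to 8123835, reverse strand, 1 exon) adds glucose at position 5. Its values were 118 and 145 FPKM in ibm1-3 against 9.95 and 9.45 FPKM in WT, with a log2 fold change of 3.62 ± 0.09 (adjusted p = 8.65e-08). For both genes the ibm1-3 libraries lay above the WT libraries with no overlap. In each pair UGT75C1 had the highest WT level in FPKM among the 8 genes that rose.

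3AT1 and 3AT2 attach a coumaroyl group to the sugar at position 3 and are close copies, each with 1 exon. 3AT1 (AT1G03940, chromosome 1, 1009228 to 1011145, reverse strand) had 95.1 and 102 FPKM in ibm1-3 against 7.88 and 5.43 FPKM in WT, a log2 fold change of 3.72 ± 0.13 (adjusted p = 2.55e-07). 3AT2 (AT1G03495, chromosome 1, 873166 to 874476, forward strand) had 36.7 and 84.9 FPKM in ibm1-3 against 3.34 and 5.99 FPKM in WT, a log2 fold change of 3.37 ± 0.12 (adjusted p = 3.49e-07). For both genes the lower ibm1-3 library stood above the higher WT library. Their transcripts match at 96.6% over 1244 bases, and 27.6% of the 50-base stretches of 3AT1 and 40.8% of those of 3AT2 occur in another gene. How reads were split between them is therefore uncertain. Summed, they had 2888 estimated fragments in ibm1-3 and 237 in WT in pair 1, a log2 ratio of 3.56 with an exact Clopper-Pearson 95% interval of 3.37 to 3.76 that covers counting error only.

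5MAT (AT3G29590, chromosome 3, 11398592 to 11400332, reverse strand, 1 exon) attaches a malonyl group to the glucose at position 5. It had 44.2 and 41.97 FPKM in ibm1-3, against 0.43 and 0.49 FPKM in WT, where it was the lowest member in both pairs. The WT value of pair 1 rests on 9 estimated fragments and that of pair 2 on about 14. The log2 fold change on the scale with 1 FPKM added was 4.92 ± 0.11 (adjusted p = 4.97e-08). That scale understates the change of so low a gene, whose plain log2 FPKM ratios were 6.68 and 6.42. On that plain scale DFR stood at 6.14 and 6.59, below 5MAT in pair 1 and above it in pair 2.

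GSTF12 (AT5G17220, chromosome 5, 5658416 to 5659661, forward strand, 3 exons), also named TT19, is the protein needed for vacuolar loading. It had 149 and 329 FPKM in ibm1-3 against 4.71 and 9.24 FPKM in WT, a log2 fold change of 4.86 ± 0.08 (adjusted p = 2.0e-08). Both genotypes were higher in pair 2, and the cause was not tested. The pair 2 table uses a gene length of 777 bases for GSTF12 where that of pair 1 uses 1096. The ratio within a pair does not depend on that length, and it was 31.7 in pair 1 and 35.6 in pair 2.

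**Figure D2:**
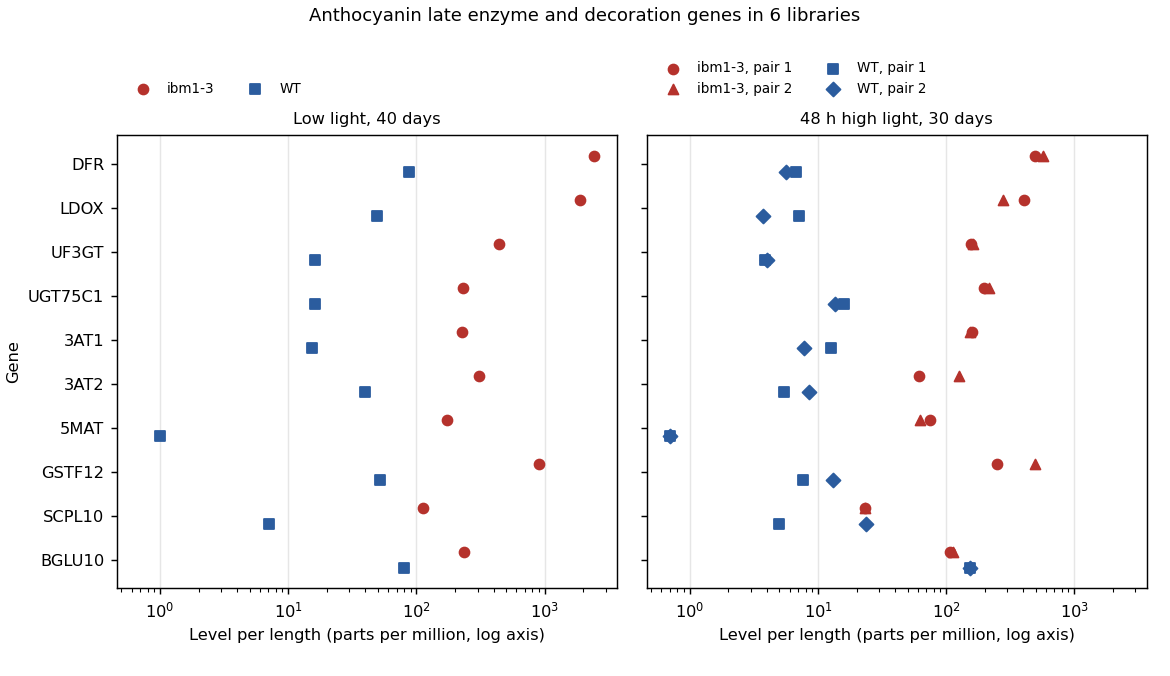
Level per length of each gene on a log axis, in ppm of the 20575 genes listed in all 3 tables, with low light on the left and high light on the right. Red marks are ibm1-3 and blue marks WT libraries, each mark 1 library. In the high light panel red lies right of blue for the 8 genes that rose, the marks of SCPL10 overlap, and BGLU10 lies to the left in ibm1-3.

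SCPL10 and BGLU10 differed from the other members. SCPL10 (AT2G23000, chromosome 2, 9792212 to 9796408, forward strand, 14 exons) belongs to the serine carboxypeptidase-like family and transfers a sinapoyl group to anthocyanins. It had 13.8 and 15.6 FPKM in ibm1-3 and 3.09 and 16.6 FPKM in WT. The WT library of pair 2 was the highest of the 4 and that of pair 1 the lowest, so the groups overlapped. The log2 fold change was 0.88 ± 0.37 (adjusted p = 0.0636). Its log2 ratios, with 1 FPKM added, were 1.85 in pair 1 and -0.08 in pair 2. That gap of 1.94 ranked 22 among 17399 genes, whose median gap was 0.136. In pair 1 SCPL10 rested on 283 estimated fragments in ibm1-3 and 61.8 in WT. In pair 2 it rested on about 517 in ibm1-3 and 545 in WT. The cause of the gap between the pairs was not tested. In fits without the block, the sign turned when the WT library of pair 1 was left out, to -0.17 (adjusted p = 0.81), and without that of pair 2 the value was 1.94 (adjusted p = 0.0508).

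The nearest relatives of SCPL10 lie in the same stretch of chromosome 2. Of 5 such genes, 4 were tested, and SCPL9 and SCPL11 rose, SCPL8 fell and SCPL13 did not pass. Of all genes, 49.2% were called higher and 26.0% lower. With size factors 2 of the 4 were called lower. SCPL8, which makes sinapoylmalate, had 12.2 and 10.2 FPKM in ibm1-3 against 295 and 264 FPKM in WT, a log2 fold change of -4.53 ± 0.06 (adjusted p = 1.48e-08). SCPL11 had 15.8 and 18.1 FPKM in ibm1-3 against 2.96 and 3.45 FPKM in WT. SCPL9 had 4.84 and 4.98 FPKM in ibm1-3 against 0.78 and 0.46 FPKM in WT. The SCPL10 transcript matches SCPL9 at 86.4% over 1333 bases and SCPL8 at 85.9% over 1297 bases, and 3.24% of its 50-base stretches occur in another gene. SCPL8 was abundant in both WT libraries, and its part in the SCPL10 values was not tested.

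BGLU10 (AT4G27830, chromosome 4, 13861658 to 13864327, reverse strand, 13 exons) belongs to a family of beta-glucosidases and is reported to glucosylate anthocyanins in the vacuole. It had 63.3 and 76.2 FPKM in ibm1-3 against 95.2 and 108 FPKM in WT. Its log2 fold change of -0.54 ± 0.06 passed (adjusted p = 1.14e-04), where 26.0% of all genes were called lower and 49.2% higher. BGLU10 did not pass without the pair block (adjusted p = 0.128). BGLU9, its closest relative at 90.02% over 1854 bases, had a log2 fold change of -0.47 ± 0.08, a call likewise lost without the block (adjusted p = 0.272), while BGLU8 and BGLU11 rose by 0.96 ± 0.09 and 2.004 ± 0.11. Of the 50-base stretches of BGLU10, 11.9% occur in another gene. BGLU10 made up 5.52% and 5.19% of the summed level per length of the 10 members in ibm1-3 and 70.2% and 65.6% in WT.

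**Figure D3:**
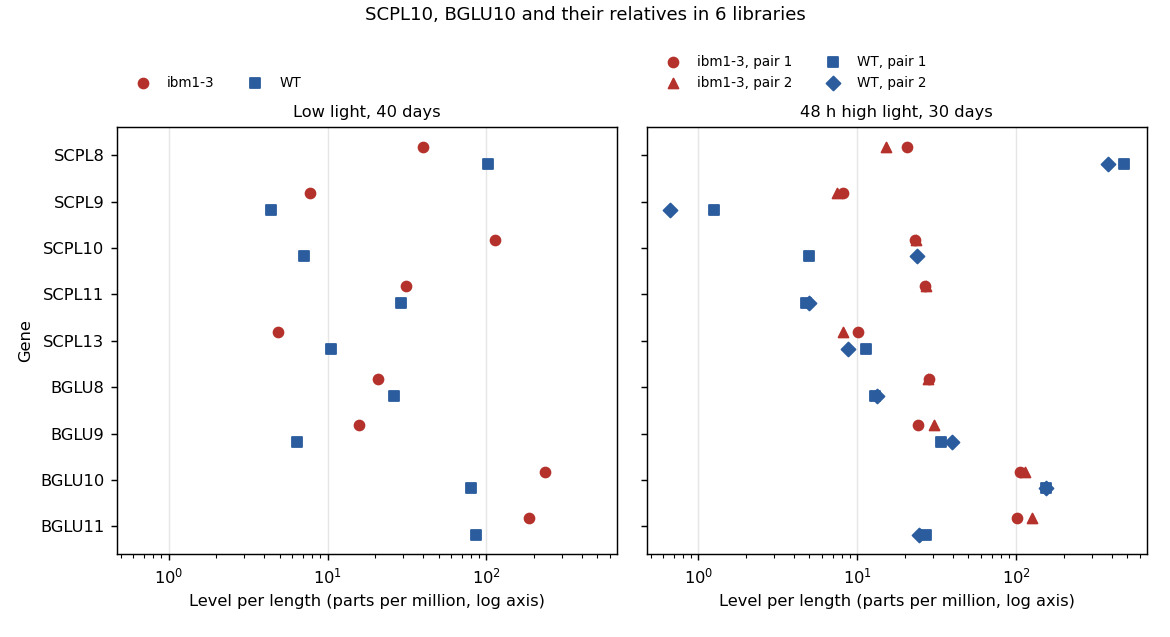
Level per length of SCPL10, BGLU10 and 7 relatives in each library, in ppm on a log axis, with ibm1-3 in red and WT in blue. After high light SCPL8 lies far to the right in WT, SCPL9 and SCPL11 lie to the right in ibm1-3, and the 2 WT marks of SCPL10 stand apart from each other.

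Under low light the same genes were compared between the genotypes. With 1 library per genotype there was no test, and the intervals are exact Clopper-Pearson 95% intervals for counting error only. All 10 members were at least 2-fold higher in the ibm1-3 library, as were 5.68% of the 16509 genes with at least 50 reads, and 9 of 10 were at least 4-fold higher, against 1.27% of genes. At least 2-fold lower were 0 members, against 9.72% of genes. The members' median log2 ratio was 3.74, against 0.0107 for all genes. SCPL10 and BGLU10 were among the genes that stood higher here.

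DFR had 31515 reads in ibm1-3 and 1385 in WT, a log2 ratio of 4.48 (interval 4.41 to 4.56). LDOX had 20978 reads in ibm1-3 and 658 in WT, a log2 ratio of 4.97 (4.86 to 5.08). GSTF12 followed with 8390 reads in ibm1-3 and 592 in WT, at 3.80 (3.68 to 3.92). These 3 genes were the most abundant members per length in the ibm1-3 library, where DFR stood at percentile 99.9 of all genes. The highest ratio belonged to 5MAT, with 2582 reads in ibm1-3 and 18 in WT, a log2 ratio of 7.06 whose interval of 6.48 to 7.90 is wide because of the 18 reads. UF3GT had 6194 reads in ibm1-3 and 276 in WT, at 4.46 (4.29 to 4.64). UGT75C1 had 3223 in ibm1-3 and 274 in WT, at 3.53 (3.35 to 3.71). The glycosyltransferase ratios thus kept the same order as after high light.

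3AT1 had 3707 reads in ibm1-3 and 305 in WT, and 3AT2 had 3449 in ibm1-3 and 534 in WT. Together, since their reads are split with uncertainty, they had 7156 reads in ibm1-3 and 839 in WT, a log2 ratio of 3.07 (2.96 to 3.17). SCPL10 had 1574 reads in ibm1-3 and 120 in WT, at 3.68 (3.42 to 3.97), a ratio closer to those of the other members than its high light values were. BGLU10 had 3468 reads in ibm1-3 and 1431 in WT, at 1.25 (1.16 to 1.34), the lowest ratio of the 10 and opposite in sign to both high light pairs. Lower in high light by the test and at least 2-fold higher in low light describes 1.32% of 15851 genes. The difference between the light conditions was not tested.

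**Figure D4:**
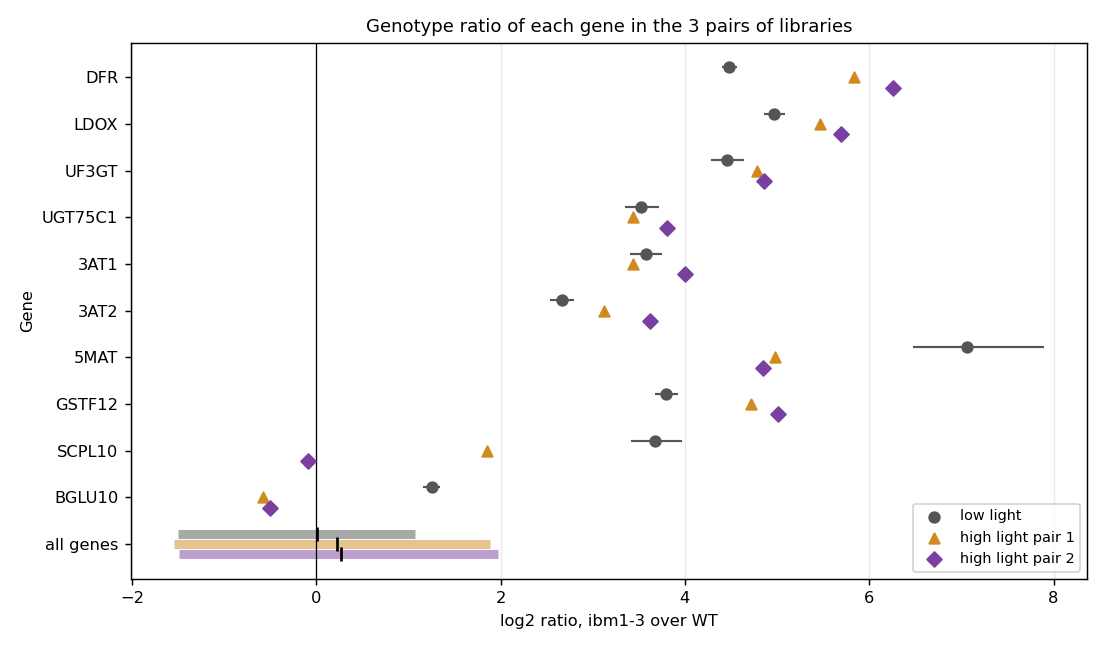
Log2 ratio of ibm1-3 over WT for each gene in low light (circles, with 95% counting intervals) and in high light pairs 1 and 2 (triangles and diamonds, 1 FPKM added). The bars at the bottom span the middle 90% of all genes in each pair with their medians as ticks. Of the 10 genes, 8 lie right of the bar of the same pair in all 3 pairs, SCPL10 and BGLU10 lie right of the bar of their pair in low light only, and BGLU10 lies left of 0 in both high light pairs.

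Across all 3 pairs, 8 of the 10 members were at least 2-fold higher in ibm1-3, against 1.44% of 15851 genes. The summed level per length of the 10 genes was 1923 and 2191 ppm in ibm1-3 and 219 and 235 in WT after high light, and 6965 in ibm1-3 and 364 in WT under low light. DFR made up 25.6% and 25.9% of that sum in ibm1-3 and 3.08% and 2.40% in WT after high light, and 35.0% in ibm1-3 and 24.2% in WT under low light. DFR was the most abundant member per length in all 3 ibm1-3 libraries and in the WT library of low light, while BGLU10 was the most abundant in both WT libraries of high light.

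Light is tied to age in this design, since the high light plants were 30 and the low light plants 40 days old, and to the table with its own scaling, so these cannot be told apart and no test was made. In ibm1-3 the level per length of all 10 members was lower in both high light libraries than in the low light library, as it was for 44.0% of 15962 genes. DFR stood at 493 and 566 ppm after high light and at 2437 under low light in ibm1-3. In WT 8 of 10 members were lower after high light, against 46.7% of genes. DFR in WT stood at 6.74 and 5.65 ppm after high light and at 88.1 under low light. UGT75C1 in WT was nearly level, at 16.05 and 13.5 ppm after high light and 16.08 under low light, and by rank it was not lower in both libraries. The exceptions in WT were BGLU10, at 154 and 154 ppm after high light and 79.6 under low light, and SCPL10, at 4.99 and 23.8 after high light and 7.08 under low light.

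Other genes of the pathway were set beside these members by lists chosen with earlier results of the data known. All 7 genes of the early flavonoid list, which also holds FLS1 and the glycosyltransferase gene UGT78D2, rose in ibm1-3 after high light. Of all genes, 49.2% were called higher. The median log2 fold change of the 7 was 4.28, near the members' own. Chalcone synthase (CHS), which builds the flavonoid skeleton, had 449 and 894 FPKM in ibm1-3 against 10.6 and 21.6 FPKM in WT. UGT78D2, which adds the first sugar at position 3 of anthocyanidins and flavonols, was singled out after its values were seen. It rose least of the 7, with 60.3 and 52.6 FPKM in ibm1-3 against 35.0 and 33.0 FPKM in WT, a log2 fold change of 0.71 ± 0.07, and it did not pass without the pair block (adjusted p = 0.0563). Under low light UGT78D2 had 6437 reads in ibm1-3 and 367 in WT, a log2 ratio of 4.10. All 6 phenylpropanoid entry enzymes rose too, where 49.2% of all genes were called higher, and C4H did not pass without the pair block (adjusted p = 0.0973). Their median was 1.99, PAL2 by 2.63 ± 0.08 and 4CL3 by 2.85 ± 0.15. Under low light 5 early enzymes had enough reads and all 5 were at least 2-fold higher in ibm1-3, against 5.68% of genes. F3H was listed at 0 in both low light libraries and FLS1 in that of ibm1-3, while F3H had 66.4 and 57.9 FPKM in ibm1-3 after high light, so a listed 0 need not mean absence.

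Of 8 listed activators 7 were tested after high light, and 6 rose and TTG1 fell, against 49.2% of all genes called higher and 26.0% lower. MYB114, among the 6, did not pass without the pair block (adjusted p = 0.0968). TT8, the bHLH partner, had 32.9 and 22.3 FPKM in ibm1-3 against 0.90 and 0.29 FPKM in WT, a log2 fold change of 4.17 ± 0.11 (adjusted p = 1.02e-07). MYB90 had 188 and 120 FPKM in ibm1-3 against 11.6 and 6.98 FPKM in WT. TTG1, the WD40 protein of the complex, had 14.8 and 25.8 FPKM in ibm1-3 against 57.3 and 94.5 FPKM in WT. Of 7 listed repressors 6 were tested, and MYBL2, LBD37 and LBD39 fell, MYB4 and CPC rose and SPL9 did not pass, against the same shares of all genes. CPC did not pass without the pair block (adjusted p = 0.0769). MYBL2 had 12.1 and 17.5 FPKM in ibm1-3 against 223 and 287 FPKM in WT, a log2 fold change of -4.03 ± 0.06. Under low light MYBL2 had 1661 reads in ibm1-3 and 641 in WT, a log2 ratio of 1.35. It thus stood higher in ibm1-3 together with all 10 members there. The repressors as a list did not. Of 5 with enough reads, 1 (MYBL2) was at least 2-fold higher and 2 at least 2-fold lower, against 5.68% and 9.72% of genes. The 2 were LBD37, with 551 reads in ibm1-3 and 2517 in WT (log2 ratio -2.21), and LBD38, listed at 0 in ibm1-3.

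**Figure D5:**
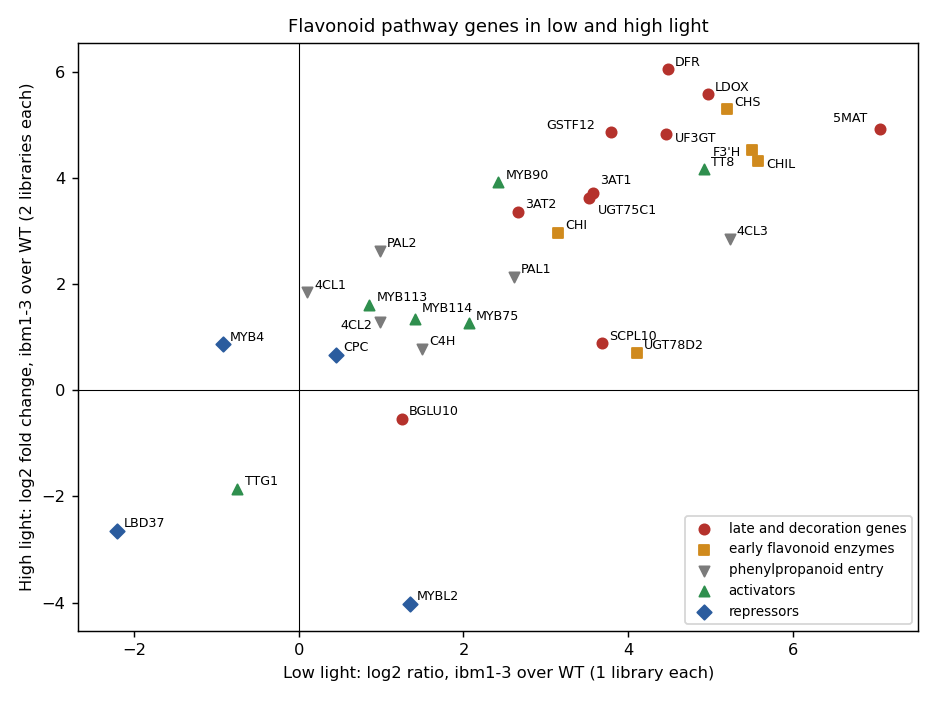
Each mark is a gene, with its low light log2 ratio of ibm1-3 over WT on the horizontal axis (1 library each) and its high light log2 fold change on the vertical axis (2 libraries each). Late and decoration genes other than SCPL10 and BGLU10 lie at the upper right with the plotted early flavonoid enzymes other than UGT78D2, and MYBL2 lies at 1.35 and -4.03.

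Genes were also ranked by how near their 3 genotype ratios lay to the medians of the members (3.74 in low light, 4.08 in pair 1 and 4.42 in pair 2). The measure was the Euclidean distance over the 3 pairs among 12659 genes, a description with no test. The 6 nearest genes outside the members were AT5G45220 at a distance of 1.17, TT8 at 1.21, the protein kinase gene CIPK25 at 1.26, the galactolipid synthase gene MGDC at 1.33, MYB90 at 1.42 and AT3G01345 at 1.45. Both TT8 and MYB90 are thus in this short list. Among the members, 3AT1, GSTF12, UGT75C1 and UF3GT held ranks 1 to 4. 3AT2 held rank 13, LDOX 23, DFR 36 and 5MAT 71, all farther from the medians than the 6 genes named above. SCPL10 held rank 514 and BGLU10 rank 8027, though the members set the medians themselves.

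Members of the same enzyme families did not all go with the 10 genes. UGT79B2, related to UF3GT, had 98.4 and 89.97 FPKM in ibm1-3 against 11.3 and 10.5 FPKM in WT after high light, a log2 fold change of 3.00 ± 0.07, while under low light it had 454 reads in ibm1-3 and 544 in WT. GSTF11 is the closest relative of GSTF12 at 75.9% over 638 bases. After high light it had 4.27 and 5.22 FPKM in ibm1-3 and 3.77 and 5.56 FPKM in WT. That difference did not pass (adjusted p = 0.819). Under low light GSTF11 had 295 reads in ibm1-3 and 91 in WT. Its log2 ratio there was 1.66 (interval 1.33 to 2.03), in the same direction as the 10 members. Of 3 tested acyltransferase relatives of 5MAT, PMAT1 and PMAT2 fell and AT3G29680 rose, where 49.2% of all genes were called higher and 26.0% lower. PMAT1 had 33.3 and 74.2 FPKM in ibm1-3 against 54.7 and 102 FPKM in WT, and neither it nor AT3G29680 passed without the pair block (adjusted p = 0.47 and 0.144).

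Genes of other kinds moved in the same libraries. CCA1, a morning gene of the circadian clock, had 10.7 and 7.09 FPKM in ibm1-3 against 284 and 225 FPKM in WT after high light. Under low light it had 2021 reads in ibm1-3 and 2032 in WT. All 4 listed clock genes were called after high light, where 49.2% of all genes were called higher and 26.0% lower. CCA1 and LHY fell, with log2 fold changes of -4.71 and -4.12, and TOC1 and GI rose, with 1.71 and 2.19. Of the 5 epidermis markers, ATML1, FDH and KCS6 rose after high light and GL2 and CER1 fell. Of all genes, 49.2% were called higher and 26.0% lower. KCS6 and GL2 did not pass without the pair block (adjusted p = 0.312 and 0.732). CER1 had 0.30 and 0.27 FPKM in ibm1-3 against 3.85 and 4.63 FPKM in WT. The 5 summed to 368 and 623 ppm in ibm1-3 and 206 and 315 in WT after high light, with KCS6 alone at 269 and 524 ppm in ibm1-3 and 146 and 263 in WT, and to 253 in ibm1-3 and 376 in WT under low light. The 4 guard cell markers summed to 59.95 and 52.2 ppm in ibm1-3 and 66.3 and 50.3 in WT after high light. Under low light they summed to 51.85 in ibm1-3 and 43.1 in WT. Of the 3 tested after high light, KAT1 was called higher and FAMA and MYB60 lower. None of these passed without the pair block. Of 4 root markers 1, PYK10, was tested, at 2.96 and 1.60 FPKM in ibm1-3 and 1.59 and 0.31 FPKM in WT. PYK10 was called higher but did not pass without the pair block (adjusted p = 0.242). Under low light it had 86 reads in ibm1-3 and was listed at 0 in WT. The other 3 root markers were not analysed here. The part of clock phase or cell types in the members' values was not tested, and in whole leaves fewer cells of a type and less RNA per cell cannot be told apart.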

How the data were processed

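Rosette leaf RNA of ibm1-3 and WT was sequenced, and groups were taken from sample titles. Per the submitters' processing notes, reads were processed with Bowtie2 and TAIR10; for counting program and strand use, nothing is stated in the sources used here. Per the file headers and values, high light pair 1 has FPKM beside estimated counts. In the pair 2 table the deposited column headed expression behaves as FPKM, and 0.01 in both, taken as 0, stands where no fragment was counted. Low light values are a signal scaled by the authors. Within a tolerance of 0.01, 100% of those above 0 are whole numbers of a common unit, the lowest being 15 units, and a unit was taken as 1 read. The authors' deposited log2 ratios, p-values and adjusted p-values compare single libraries and were not used. The pair 1 columns carry no replicate number, so the table defines the pair.

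High light was tested with limma 3.58.1 (trend) in R 4.3.3 on log2(FPKM + 1) with the pair as a block, because the tables were scaled separately; edgeR had been planned only for counts in both. Deviations of libraries of the same pair from their group means correlated at 0.895. The fit has 1 residual and 6.17 prior degrees of freedom, so p-values and SE rest mostly on the spread of all genes. It was also run on simulated data with far fewer changed genes than were called here. That run cannot show the error rate in these data. For low light, TMM factors (edgeR 4.0.16) and 1 added read as prior count were used. Level per length divides low light reads by the pair 1 gene length and sets each library to ppm of the 20575 shared genes. Shared sequence was found with blastn 2.17.0 among RefSeq transcripts, and intervals with SciPy 1.17.1. All 10 members are named whatever their values, with up to 4 genes of each list by size of change and others where their family or an opposite low light ratio calls for it. The members and lists were chosen with earlier results of these data known. Alternatives were no block, a pseudocount of 0.1, no filter, size factors, no trend, each library left out, other low light scalings, a prior count of 5 and ranks.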

Additional observations from a re-analysis of the deposited data

Results flagged for a closer look

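Of the 85 listed genes, 14 passed limma in high light, moved one way in both high light pairs and the other way in low light, with a low light counting interval that leaves out 0. The difference between the light conditions was not tested, since low light has 1 library per genotype, and light is tied to age and to the table. Among the members this held for BGLU10, with a low light log2 ratio of 1.25 beside plain high light ratios of -0.59 and -0.50. Among the repressors MYBL2 stood at 1.35 in low light and MYB4 at -0.92. Among the relatives of SCPL10 and BGLU10, SCPL11 stood at -0.21, BGLU8 at -0.64 and BGLU9 at 0.99 in low light. Among the relatives of UF3GT and 5MAT, UGT79B2 stood at -0.29, PMAT1 at 1.26 and PMAT2 at 0.29. Among the epidermis markers ATML1 stood at -1.11, FDH at -1.25, KCS6 at -0.74 and GL2 at 0.59, and the clock gene TOC1 stood at -1.38. The share of all genes that meets this rule was not computed, so the 14 are not shown to be an excess. Of all genes tested in high light, 75.2% passed limma in either direction. A narrower rule, lower in high light and at least 2-fold higher in low light, held for 1.32% of genes. Among the 14 it held for BGLU10, MYBL2 and PMAT1.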

How the results depend on the processing

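The 8 members called higher in high light were 8 under each of the 5 alternative fits of all 4 libraries and whichever of the 4 libraries was left out, and all 10 members were at least 2-fold higher in low light under every scaling and prior count run. Without the replicate block 4622 genes were called, against 13087 with it, and with a library left out, fitted without the block, 1242 to 3395 were. In these fits BGLU10 lost its call, so that 0 members were lower in high light and at least 2-fold higher in low light without the block and in each fit with a library left out, against 1 with it. With a library left out its log2 fold change ran from -0.67 to -0.41 (adjusted p from 0.279 to 0.533). That of SCPL10 ran from -0.17 to 1.94 (adjusted p from 0.0508 to 0.81), and its sign turned without the WT library of pair 1. The cause was not tested. With a library left out, the lone library of a genotype is assumed to vary like the other genotype's. Fits without the block take in the different scaling of the tables, so a call lost there does not show a weaker effect. The pair 1 and low light counts limit 5MAT most, whose WT values rest on 9 fragments and 18 reads.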
